A study of Rattus norvegicus with 6 samples.

Results

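The miRNAs described here are the arms of the rat precursors miR-208a, miR-208b and miR-499, which lie inside myosin heavy chain genes. Every miRNA of the array whose name belongs to one of these precursors was taken, which gave 6 arms (rno-miR-208a-3p, rno-miR-208a-5p, rno-miR-208b-3p, rno-miR-208b-5p, rno-miR-499-3p and rno-miR-499-5p, written below without the species prefix) of the 758 miRNAs measured. Myocardial RNA of 6 male Sprague–Dawley rats was hybridised to 6 Agilent Rat miRNA arrays with a single dye. In the model group (n = 3) the left anterior descending coronary artery had been tied off to cause an infarct, and in the control group (n = 3) sham surgery only passed the thread. All rats came from one supplier at a weight of 200 ± 20 g, their age is not given in the sources used here, and tissue was taken 4 weeks after surgery. The series text gives the tissue as left ventricle and the methods as the infarct margin, which is mixed tissue of muscle, scar and other heart cells. In such bulk samples, fewer cells of a type and less RNA per cell cannot be told apart.

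Myosin heavy chains are the motor proteins of the sarcomere. In the rodent heart, Myh6 encodes the fast alpha chain of adult ventricular muscle, Myh7 the slow beta chain that is prominent in the fetal heart and under load, and Myh7b a related chain of slow muscle. Each of these genes carries a miRNA in an intron, miR-208a in Myh6, miR-208b in Myh7 and miR-499 in Myh7b, so that host gene and miRNA are made from a shared transcript. In mice, loss of miR-208a blunts the induction of Myh7 by stress, and these miRNAs are known as a network that sets muscle gene programmes. They are regarded as specific to striated muscle, and some of them are measured in blood as signs of cardiac injury.

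The mature sequences are shown because the seed is the stretch with which a miRNA pairs to its targets, and because they show how closely the arms of different precursors resemble each other. They were taken from RefSeq (build GRCr8), in which all 6 arms were matched by name, and are written 5′ to 3′ with bases 2 to 8, the seed, in capitals.
miR-208a-3p: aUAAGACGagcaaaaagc
miR-208b-3p: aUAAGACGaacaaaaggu
miR-499-5p: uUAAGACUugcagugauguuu
miR-208a-5p: gAGCUUUUggcccggguuauac
miR-208b-5p: aAGCUUUUugcucgcguuau
miR-499-3p: aACAUCACagcaagucugugcu

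The 3p arms of miR-208a and miR-208b had the same seed and were identical at 15 of 18 bases. They differed by G10A, A16G and C18U, with the base of miR-208a-3p first and positions counted from 1 at the 5′ end. MiR-499-5p shared bases 2 to 7 with both of them and differed within the seed at 1 base, G8U against miR-208a-3p. The 5p arms of miR-208a and miR-208b also shared a seed. Among the 724 mature rat miRNAs of the RefSeq table, 0 outside these precursors had bases 2 to 7 of any of the 6 arms.

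The precursors of miR-208a and miR-499 are shown because both gave a detected arm, with the mature arms in capitals. The Mir208a hairpin lies at chr15:32395552-32395634 on the minus strand of GRCr8, within the span of Myh6, and the Mir499a hairpin at chr3:164570612-164570676 on the plus strand, within Myh7b. The Mir208b hairpin lies at chr15:32421615-32421726 on the minus strand, within Myh7, which neighbours Myh6 with 0 genes between them.
Mir208a: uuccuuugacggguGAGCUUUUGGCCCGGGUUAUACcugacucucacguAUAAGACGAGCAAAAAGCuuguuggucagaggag
Mir499a: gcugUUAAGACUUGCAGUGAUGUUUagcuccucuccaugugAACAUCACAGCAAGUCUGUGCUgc

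On the arrays, a signal is the brightness of the spots of a probe in units of the scanner after subtraction of the background, and the software gives each probe an error. A probe was counted as detected where its signal was over 3 times that error, and the signal of a miRNA was the sum of its detected probes. MiR-208a-5p and miR-499-5p were detected on all 6 arrays, with both of their probes. MiR-208a-3p was detected with 1 of its 2 probes, on the 3 control arrays and on 2 of the 3 model arrays. MiR-208b-3p, miR-208b-5p and miR-499-3p were detected on 0 of 6 arrays. Detection differed in strength between the arms, since the signal was 8.57 to 9.95 times the error for the probes of miR-499-5p, 3.68 to 8.57 times for those of miR-208a-5p and at most 6.02 times for miR-208a-3p. Probes differ in how they bind, so the signals of different miRNAs were not compared with each other.

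**Figure D1:**
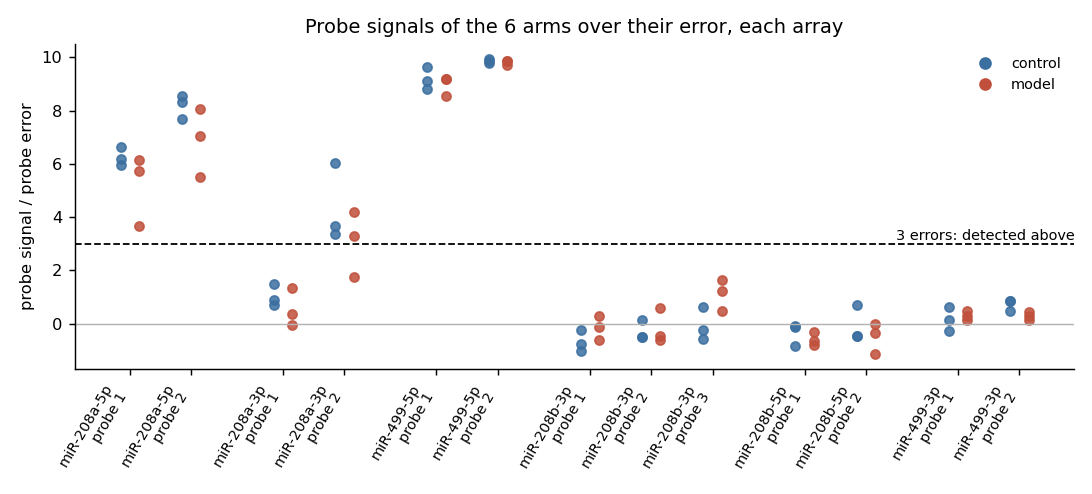
Signal of each probe divided by its error (vertical axis) for the 6 arms (horizontal axis), 1 point per array, with control arrays in blue and model arrays in red. The dashed line marks 3 errors. The probes of miR-208a-5p and miR-499-5p lie above it on all 6 arrays, 1 probe of miR-208a-3p lies above it on 5 arrays, and the 7 probes of miR-208b-3p, miR-208b-5p and miR-499-3p lie below it everywhere.

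The question put to these arms is whether their levels in the myocardium differ between rats with an infarct and sham-operated rats. Signals were scaled to the 75th percentile that the 198 miRNAs found on all 6 arrays had on that array, and log2 was taken. Limma with Benjamini-Hochberg adjustment then tested 214 miRNAs, those found on all 3 arrays of either group. Of the 6 arms, 3 passed this filter. MiR-208a-3p passed through the control group, where its signal was the higher one.

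MiR-208a-5p, the arm opposite the usual guide strand of the Myh6 miRNA, was lower in the model group. Its signal was 18.3, 24.4 and 19.7 on control arrays 1, 2 and 3, and 15.2, 9.36 and 15.6 on model arrays 1, 2 and 3. All model arrays lay below all control arrays before any scaling, and model array 2 was the lowest. After scaling, the log2 signal was -2.94 ± 0.05 (SD, n = 3) in sham rats and -3.85 ± 0.48 (SD, n = 3) in rats with an infarct, so that the model arrays were spread more widely than the control arrays. The log2 fold change was -0.91 (standard error 0.24, 95% confidence interval -1.49 to -0.32, adjusted p = 0.0441 in limma), a level 0.533 times that of the control group. Its 2 probes, each printed in 8 spots, gave log2 fold changes of -0.81 and -0.96, and with either probe all model arrays lay below all control arrays. The adjusted p stands close to the threshold of 0.05. It ran from 0.0320 to 0.107 with each array left out in turn, and was above the threshold without any of the 3 control arrays or without model array 1.

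MiR-208a-3p, the guide strand of the same precursor, gave a faint signal. It was 3.72, 7.23 and 3.07 on control arrays 1, 2 and 3, and 3.14 and 3.37 on model arrays 1 and 3. On model array 2 its brighter probe reached 1.56 with an error of 0.899, under the detection threshold, so this array was held at the lowest level detected on every array (-6.50 on the log2 scale). Before scaling the groups overlapped. After scaling the log2 signal was -5.19 ± 0.44 (SD, n = 3) in sham rats and -6.05 ± 0.43 (SD, n = 3) in rats with an infarct. The order of the scaled arrays is not counted for this arm. It passed the filter through the control group, and model array 2 was set to the floor. The log2 fold change of -0.87 (standard error 0.30, 95% confidence interval -1.61 to -0.12) did not pass the threshold, with an adjusted p of 0.0988 in limma. The value depends on the level given to model array 2, and it was -1.23 with a floor of 1 signal unit and -0.65 without that array. The totals as deposited gave -0.49, and the same setting moved miR-208a-5p to -0.57 and miR-499-5p to -0.35, whose own totals were those rebuilt from the probes.

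The signal of miR-499-5p, from Myh7b, was 75.8, 133 and 59.4 on control arrays 1, 2 and 3, and 77.6, 51.8 and 58.6 on model arrays 1, 2 and 3. In these unscaled signals the groups overlapped, with control array 2 far above the other arrays. After scaling, the log2 signal was -0.91 ± 0.39 (SD, n = 3) in sham rats and -1.60 ± 0.26 (SD, n = 3) in rats with an infarct, and all model arrays lay below all control arrays by a small margin, from -1.29 on control array 3 to -1.39 on model array 1. The log2 fold change of -0.69 (standard error 0.23, 95% confidence interval -1.27 to -0.11) did not pass the threshold, with an adjusted p of 0.0929 in limma. Its 2 probes gave -0.66 and -0.70, and the ratio of the brighter to the dimmer probe was between 2.50 and 2.70 on all 6 arrays. The spots of 1 probe on 1 array had a coefficient of variation of 1.78% to 5.84% for this miRNA, against 2.30% to 22.6% for miR-208a-5p. Without control array 2 the log2 fold change was -0.50, and without control array 3 it was -0.89.

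**Figure D2:**
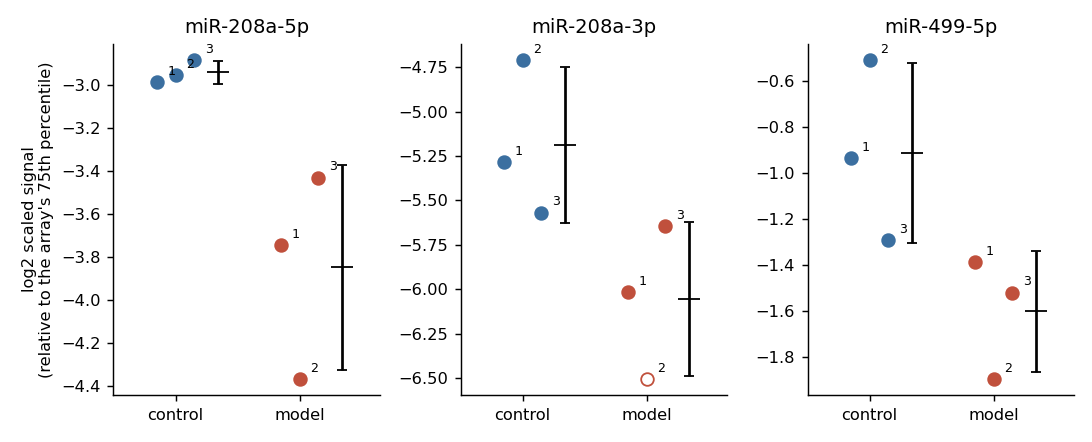
Log2 scaled signal (vertical axis, relative to the 75th percentile of the array) of the 3 arms that were tested, with 1 point per array labelled by its replicate number and the mean ± SD of the 3 arrays as bars. The open circle is model array 2, where miR-208a-3p was not detected and was held at -6.50. In each panel the 3 model arrays lie below the 3 control arrays, and the control arrays of miR-208a-5p have an SD of 0.05.

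For 1 of the 3 tested arms, miR-208a-5p, the adjusted p was under 0.05 with a lower level in the model group, where 12.6% of all 214 tested miRNAs were called lower, 10.3% higher and 22.9% in either direction. MiR-208a-3p had passed the filter through the control group alone and was held at the floor on model array 2, so it is left out of the next counts. At an unadjusted p under 0.05 both arms detected on all arrays were lower, against 23.8% of the tested miRNAs, and a log2 fold change below 0 was found for 64% of them. After scaling, both had groups that did not overlap, with every model array lower, as did 30.8% of the tested miRNAs. Without scaling this held for miR-208a-5p and not for miR-499-5p, and for 7.01% of the tested miRNAs. The scaling divisors were 145, 189 and 146 in sham rats and 203, 193 and 168 in rats with an infarct, so that scaling lowered the model arrays relative to the control arrays. Over all 214 miRNAs, 27 were called lower and 22 higher with this scaling. The split was 47 and 19 when the 75th percentile came from all miRNAs, 18 and 22 with quantile normalization, 16 and 30 with centring on the median deviation, and 0 and 19 without scaling, where 4 were lower at an unadjusted p under 0.05 in limma. Across all 214, the median log2 fold change was -0.14 after scaling and 0.11 without it. Relative to the median after scaling, the log2 fold changes were -0.77 for miR-208a-5p, -0.73 for miR-208a-3p and -0.55 for miR-499-5p.

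In the order of all 214 log2 fold changes, miR-208a-5p was the lowest and miR-499-5p the 10th lowest. MiR-208a-3p stood next to miR-208a-5p, but its place rests on the floor given to model array 2 and is not a measured rank. The order of the neighbours is not resolved, since the confidence intervals of these 3 arms overlapped each other and those of the miRNAs next to them. Across the alternative settings the rank of miR-208a-5p ran from 1 to 23, that of miR-208a-3p from 1 to 32 and that of miR-499-5p from 3 to 49. The log2 fold changes of miR-208a-5p and miR-499-5p were below 0 in all 24 alternatives. That of miR-208a-3p was below 0 in the 23 alternatives that gave a value. It passed the filter through the control group, where its signal was higher, so its sign was not counted with those of the other arms.

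**Figure D3:**
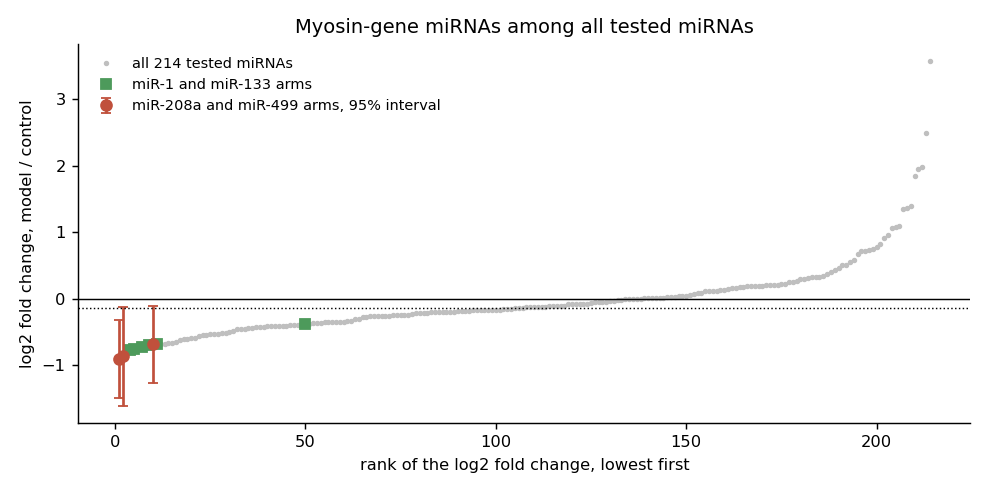
Log2 fold change between model and control group (vertical axis) of the 214 tested miRNAs, ordered from the lowest (horizontal axis, rank). Red points are miR-208a-5p, miR-208a-3p and miR-499-5p with their 95% confidence intervals, with miR-208a-5p at rank 1 and miR-499-5p at rank 10 (the place of miR-208a-3p rests on a floor value), green squares are the tested arms of miR-1 and miR-133, and the dotted line is the median of -0.14.

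A ratio of 2 miRNAs on the same array does not depend on a single divisor per array, though it does on methods that rescale by rank or intensity. The log2 ratio of miR-208a-5p to miR-499-5p was -2.05, -2.44 and -1.59 on control arrays 1, 2 and 3, and -2.35, -2.47 and -1.91 on model arrays 1, 2 and 3. The groups overlapped, and the difference of the means was -0.22 (p = 0.60 in a two-sided exact permutation test with n = 3 per group, which cannot go below 0.10). No difference in the change of these 2 arms was detected. With quantile normalization the difference was -0.11, and with the authors' normalized values it was -0.090. The arms of the miR-208a precursor, compared on the 5 arrays where both were detected, had a log2 ratio of 3p to 5p of -2.30, -1.76 and -2.69 on the control arrays. On model arrays 1 and 3 it was -2.27 and -2.21, which lay within the range of the control arrays.

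MiR-208b is encoded in Myh7, the chain that the stressed rodent ventricle is known to raise. None of its 5 probes was detected, neither the 3 of the 3p arm nor the 2 of the 5p arm. The probe signals of miR-208b-3p lay between -0.66 and 0.92, where 3 errors corresponded to 1.35 to 2.15 depending on the probe and the array. The sum over its 3 probes was -0.81, -0.086 and -1.05 on control arrays 1, 2 and 3, and 1.17, 0.21 and -0.047 on model arrays 1, 2 and 3. All model arrays lay above all control arrays in this sum, and the error of a sum was 0.84 to 1.11. Model arrays 2 and 3 lay within that error of control array 2, and model array 1 lay further above. The group means were -0.65 ± 0.50 (SD, n = 3) and 0.44 ± 0.64 (SD, n = 3), a difference of 1.09 (p = 0.10 in a two-sided exact permutation test, which can give none smaller). Of the 522 miRNAs that were detected on no array, 3.07% had sums that were higher on all model arrays in this way and 7.47% had sums that were lower on all of them. No sum of miR-208b-3p exceeded 1.12 times its error. The 3 probes did not each show the same order, since 0 of the 3 had all model arrays above all control arrays. A level of miR-208b-3p was therefore not measurable in either group at this sensitivity, and a difference between the groups could not be read from it.

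The 5p arm of miR-208b gave sums of 0.55, -1.26 and -0.46 in sham rats and of -1.63, -0.28 and -0.84 in rats with an infarct. The groups overlapped and every sum was within 1.29 times its error. MiR-499-3p, the arm opposite miR-499-5p, gave sums of 0.56, 1.39 and 0.47 in sham rats and of 0.36, 0.56 and 0.52 in rats with an infarct, with the groups overlapping and no sum over 1.02 times its error. Of the miR-499 precursor only the 5p arm was thus detected, and of the miR-208a precursor both arms.

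Other miRNAs of striated muscle were measured alongside. MiR-1, miR-133 and miR-206 are made from transcripts of their own and act in muscle differentiation and growth. Of the 10 arms in this list, 6 were detected on all arrays and tested, and miR-206-3p, miR-206-5p, miR-133b-5p and miR-133c were detected on no array. In limma, 5 of the 6 were lower after infarction at an adjusted p under 0.05 and 0 were higher, where 12.6% of all tested miRNAs were lower (all 6 had an unadjusted p under 0.05, on the lower side). Their median log2 fold change was -0.71, against -0.14 over all tested miRNAs. MiR-1b had -0.78 (adjusted p = 0.0170), miR-1-3p -0.76 (adjusted p = 0.0203), miR-133b-3p -0.72 (adjusted p = 0.0268), miR-133a-5p -0.70 (adjusted p = 0.0170) and miR-133a-3p -0.68 (adjusted p = 0.0297). MiR-1-5p had -0.38 (adjusted p = 0.122). The fold change of miR-499-5p lay within the range of these arms and those of the miR-208a arms lay below it, while the confidence intervals of all 3 overlapped those of miR-1 and miR-133. MiR-1-3p and miR-1b, and likewise miR-133a-3p and miR-133b-3p, are nearly identical in sequence and may share signal. The number called lower was 0 without control array 1 or control array 2, 1 without control array 3 and 2 without model array 1. It was also 0 without scaling, with the totals as deposited, with no detection filter, with a replicate block and with the methods' t-test, 1 with the row as a block or the authors' normalized values, and 2 with quantile normalization, where 4 values were below 0. In the settings and left-out arrays with 0 calls, 5 or 6 of the arms were lower at an unadjusted p under 0.05, except without scaling, where it was 1.

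The miRNAs whose pattern over the 6 arrays was most like that of an arm were named by the smallest root mean square difference of the log2 signals, each centred on its own mean, among the other 196 miRNAs detected on all arrays. For miR-208a-5p these were miR-133b-3p, at 0.15 log2 units, miR-30e-3p, at 0.16, and miR-1b, at 0.16, where the median of all was 0.50. For miR-499-5p they were miR-1-3p, at 0.16, miR-30c-5p, at 0.17, and miR-29c-5p, at 0.17, where the median of all was 0.45. In all of these profiles model array 2 was the lowest of the 6 arrays, and control array 2 was the highest for miR-499-5p and its 3 neighbours. MiR-208a-5p and miR-499-5p differed from each other by 0.32. The profiles share the arrays and their scaling, so the likeness is a description of these 6 arrays.

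**Figure D4:**
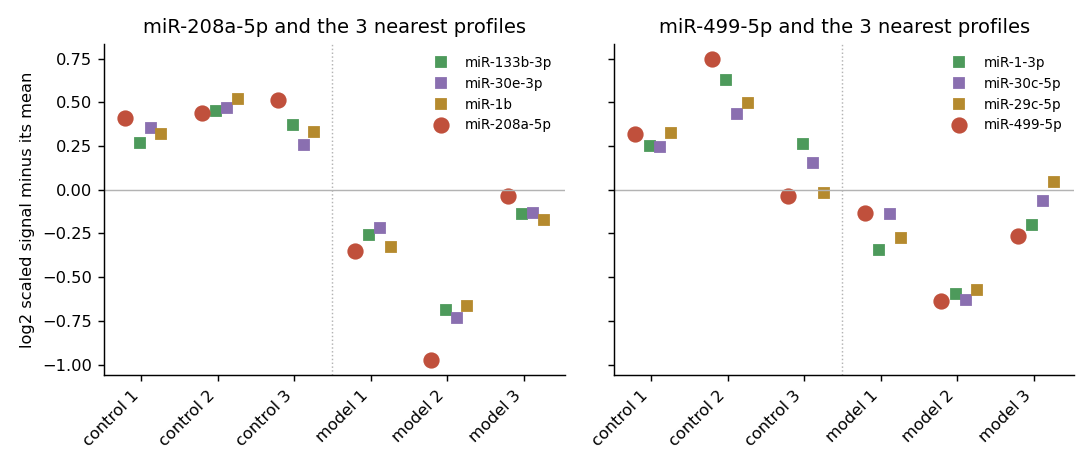
Log2 scaled signal of each miRNA minus its mean over the 6 arrays (vertical axis) on each array (horizontal axis), for miR-208a-5p (left) and miR-499-5p (right) as red circles and for the 3 miRNAs nearest to each as squares. Points are shifted sideways for legibility. Model array 2 is the lowest array in every profile, at -0.97 for miR-208a-5p and -0.64 for miR-499-5p.

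Some markers of other cells of the heart also differed between the groups, and their part in the differences of these arms was not tested. The 6 tested muscle miRNAs summed to 151 to 180 times the 75th percentile on the control arrays and to 79.5 to 111 times on the model arrays. The fibroblast and matrix list summed to 17.9 to 22.5 times on the control arrays and 24.1 to 29.2 times on the model arrays. Of its 7 members, 4 were higher after infarction at an adjusted p under 0.05 in limma and 0 lower, where 10.3% of all tested miRNAs were higher, with miR-199a-5p at 1.95 and miR-214-3p at 1.84 on the log2 scale. The other 3, the miR-29 arms (named after their values were seen), had log2 fold changes of -0.36 to -0.13 and did not pass. These 3 were the brightest of the list on the control arrays, so the sum of the list gives them much weight. Both endothelial miRNAs, miR-126a-5p at -0.59 and miR-126a-3p at -0.49, were lower in limma (adjusted p = 0.0132 and 0.0154), where 12.6% of all tested miRNAs were lower. The endothelial list summed to 8.16 to 9.17 times on the control arrays and 5.98 to 6.66 times on the model arrays. Of 5 tested leukocyte miRNAs, miR-155-5p was higher at 1.07 and miR-150-5p lower at -0.60 (limma), where 22.9% of all tested miRNAs were called in either direction. The leukocyte sum ran from 2.85 to 3.47 on the control arrays and from 2.03 to 2.51 on the model arrays. On the control arrays miR-150-5p was the brightest and miR-155-5p the dimmest of its tested members, so the sum gives miR-150-5p much weight. The 2 smooth muscle miRNAs, miR-143-3p and miR-145-5p, each had a log2 fold change of -0.17, with sums of 5.04 to 6.72 on the control arrays and 4.74 to 5.46 on the model arrays. Of the red blood cell list only miR-451-5p was detected, at -0.53 (adjusted p = 0.132 in limma), with 0.395 to 0.667 on the control arrays and 0.326 to 0.421 on the model arrays, while miR-144-3p and miR-144-5p were detected on no array.

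A single slide, scanned at 1 time, held the 6 arrays. Its row 1 carried every control array together with model array 1, and row 2 carried the other model arrays, so that row and group overlap in part. Within row 1, model array 1 against the 3 control arrays gave log2 fold changes of -0.82 for miR-208a-5p, -0.85 for miR-208a-3p and -0.50 for miR-499-5p, and with 1 model array the spread of the model group does not enter these values. With the row as a block in the fit of all 6 arrays, the values were -0.80, -0.83 and -0.48 in the same order. Their adjusted p in limma was 0.216, 0.297 and 0.385. Row 2 held no control array, so these values again rest on model array 1 against the control arrays. They are the same comparison after a slightly different scaling and not a second estimate. The lowest array for each of the 3 arms, model array 2, was in row 2, and the part of the row in its low values was not tested.

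**Figure D5:**
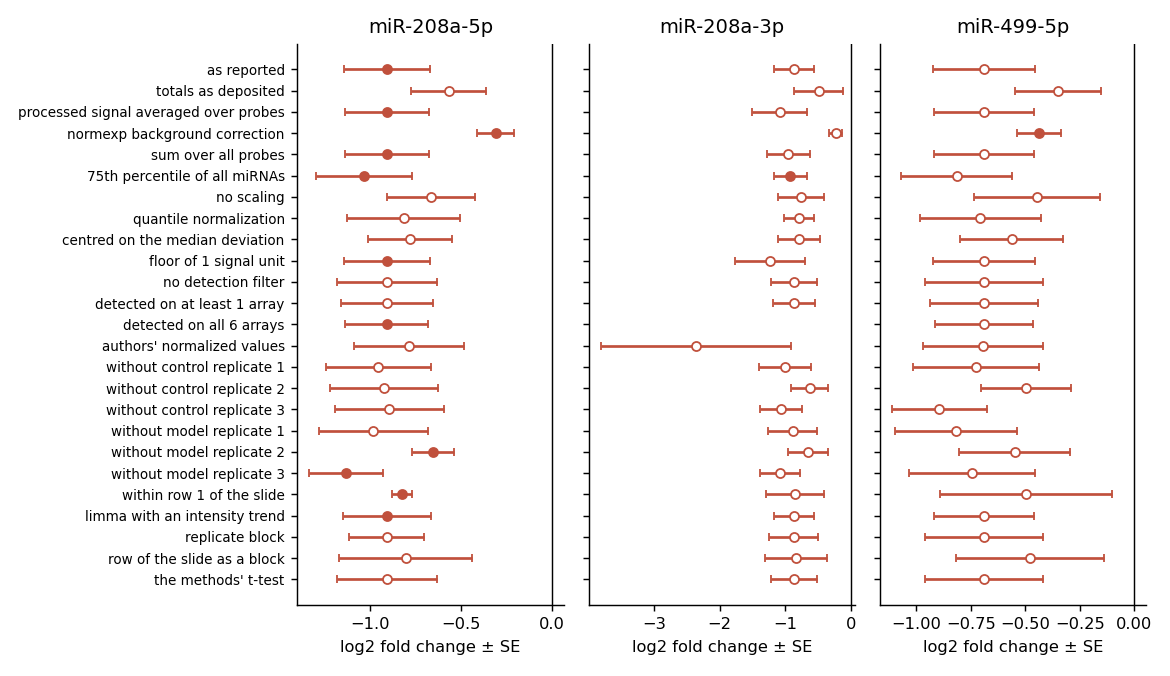
Log2 fold change ± standard error (horizontal axis) of the 3 tested arms under each setting (vertical axis), with filled circles where the adjusted p was under 0.05. All values lie below 0. For miR-208a-5p they run from -1.13 to -0.31, for miR-208a-3p from -2.36 to -0.23 and for miR-499-5p from -0.89 to -0.35. The value of -2.36 came from the authors' normalized values, where the undetected model array 2 stood at -3.31. Model arrays 1 and 3 stood at 1.50 and 1.94 there, and the standard error was 1.45.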

How the data were processed

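Cy3-labelled RNA of 3 model and 3 control rats had been hybridised to miRNA arrays. The authors deposited background-subtracted intensity values from Agilent Feature Extraction 10.7.1.1, unscaled, and a table of normalized log2 values whose method is not given in the sources used here. Precision is limited by the number of arrays and the scanner's detection threshold. Groups and replicate numbers came from the labels. The members, lists and tests were chosen with earlier results of these data known.

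For 289 detected totals over the 6 arrays, the deposited total exceeded what the detected probes of that miRNA add up to (relative tolerance 0.0001). Signals were therefore rebuilt from probes over 3 times their error. Scaled values below a floor of -6.50 in log2, the highest over arrays of the lowest detected signal, were raised to it. Limma 3.58.1 in R 4.3.3 (lmFit, eBayes, no covariates) was tested on simulated data, with a threshold of 0.05 after adjustment over 214 miRNAs. Single values were given exact permutation tests. Python 3.11.15, pandas 2.3.3, numpy 2.4.6 and matplotlib 3.10.9 did the rest. The genes named are the 6 arms, the members of the lists (at most 2 per marker list outside striated muscle) and the 3 nearest profiles of each arm detected on all arrays.

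Alternatives changed the signal (deposited totals, processed spot signals, normexp with offset 50, all probes), the scaling (75th percentile of all miRNAs, none, quantile, median centring), the floor, the filter, the test (a t-test, an intensity trend) and the blocks (replicate, slide row), used the authors' normalized values, or dropped an array. Undetected values were set to 0.1 before quantile ranking. The filter that keeps any miRNA detected on at least 1 array was added after its strict form, with all 758 miRNAs, had been seen. The qRT-PCR, staining and cell culture experiments were not analysed here.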

Additional observations from a re-analysis of the deposited data

Results flagged for a closer look

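MiR-208b-3p was detected on no array and did not enter the limma test. The sum of all its probe signals, detected or not, was nevertheless higher on every model array than on every control array. The means differed by 1.09 scanner units (-0.65 in sham rats, 0.44 in rats with an infarct). It was flagged because it lay outside the limma test, and a difference between the groups could not be read from it. No single probe had all model arrays above all control arrays. No sum exceeded 1.12 times its error, and 3.07% of the 522 miRNAs detected on no array showed the same order.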

How the results depend on the processing

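The log2 fold change of miR-208a-5p, the only arm called, stayed below 0 in all 24 alternatives and had an adjusted p under 0.05 in 10. These 10 include normexp, where it was only -0.31, and the values within row 1 of the slide, which rest on 1 model array. With normexp all 3 tested arms had the same standard error of 0.10, so an arm's own spread did not enter its p there. It missed the threshold at -0.57 with the totals as deposited, -0.66 unscaled, -0.81 with quantile normalization, -0.78 with median centring, -0.78 with the authors' normalized values, -0.91 with a replicate block (adjusted p = 0.0855 in limma), -0.80 with the slide row as a block and -0.91 with the methods' t-test (adjusted p = 0.109). Without a detection filter all 758 miRNAs entered limma, and the 522 detected on no array were constant at the floor. The value of miR-208a-5p was then also -0.91 and missed the threshold, with an adjusted p of 0.368 in limma. A milder filter, any miRNA detected on at least 1 array, was added because of that result, after seeing the data, and it too missed the threshold at -0.91 (adjusted p = 0.0667 over 236 miRNAs). With arrays left out in turn it ran from -1.13 to -0.65 and missed the threshold for 4 of the 6. The cause was not tested. MiR-208a-3p passed in 1 of 23 alternatives, at -0.92 with the 75th percentile of all miRNAs, ran from -1.07 to -0.63 with arrays left out, and gave no value where detection on all 6 arrays was required. MiR-499-5p passed in 1 of 24, at -0.44 with normexp, and ran from -0.89 to -0.50 with arrays left out. The number of arms called lower was 2 in those passing settings and 0 wherever miR-208a-5p missed the threshold, with 0 to 1 over arrays left out. Where it was 0, an unadjusted p under 0.05 held for 1 to 3 arms, or 0 with the row as a block. Over all miRNAs, 27 lower and 22 higher calls became 0 to 47 lower and 5 to 35 higher, among them 3 and 6 without a filter, 4 and 12 with the replicate block, 1 and 35 with the totals as deposited, and 2 and 12 without control array 1. The difference in the log2 ratio of miR-208a-5p to miR-499-5p turned from -0.22 to 0.13 with normexp, and ran from -0.43 to 0.0012 with arrays left out, the highest value without control array 3. Deviations from the group means had correlations of -0.26, 0.0011 and 0.16 between same-numbered arrays, and of -0.22 to 0.21 between differently numbered ones. Deviations from a group mean are tied to each other, so these values cannot show whether the replicate numbers pair the arrays. A slide or scan block was not run, since the arrays share both. Signals near 3 errors limit miR-208a-3p, and miR-208b lay under the detection threshold.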
